A study of Mus musculus with 6 samples.

Results

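Fatty acid elongases and desaturases were compared between livers of Dnajb4+/+ and Dnajb4-/- mice. The group holds 10 of the 18193 genes measured, namely the elongases Elovl1, Elovl2, Elovl3, Elovl5, Elovl6 and Elovl7, the front-end desaturases Fads1 and Fads2, and the stearoyl-CoA desaturases Scd1 and Scd2. A gene belonged to it when its symbol was on this list and when a probe set, a group of oligonucleotides against a transcript, carried that symbol alone, which held for 27 of 34945 probe sets. Livers came from 3 Dnajb4+/+ and 3 Dnajb4-/- mice, labelled as untreated C57BL/6 males of 6 to 8 weeks, with 1 Affymetrix expression array per mouse. Dnajb4 encodes the co-chaperone HLJ1 and was deleted by gene targeting in embryonic stem cells, and no restriction to a tissue was named. Every value is a normalized intensity on a linear scale or its log2, and every difference is Dnajb4-/- minus Dnajb4+/+.

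Elongases catalyse the first and slowest step of a cycle in the endoplasmic reticulum that lengthens acyl-CoA chains with carbons from malonyl-CoA. Desaturases place double bonds in these chains with electrons passed on by cytochrome b5. In liver, Elovl6 and the stearoyl-CoA desaturases turn palmitate into monounsaturated fatty acids such as oleate, while Fads2, Elovl5, Fads1 and Elovl2 act in turn on dietary linoleic and alpha-linolenic acid to give arachidonic and docosahexaenoic acid (DHA). Elovl3 makes saturated and monounsaturated chains of greater length, and its transcript is known to be more abundant in male than in female mouse liver and to follow the time of day.

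Several features of the arrays moved with genotype, and they apply to every result given here. The brightest Dnajb4 probe set read 588, 566 and 612 in Dnajb4+/+ livers and 467, 480 and 453 in Dnajb4-/- livers, and the other Dnajb4 probe sets overlapped between genotypes. The deleted stretch of the gene was not named in the sources used here, so these probe sets do not check the genotype labels. Although all mice are labelled male, Xist, the RNA that silences an X chromosome in female cells, read 364 to 402 in Dnajb4+/+ and 14.3 to 17.2 in Dnajb4-/- livers. The summed level of 3 measured Y-linked genes (Uty, Kdm5d, Eif2s3y) was 107 to 120 and 127 to 134. Uty (18.9 to 26.3) and Kdm5d (24.6 to 26.4) lay under the median of every array, and Eif2s3y (62.6 to 81.3) lay above it. None of the 3 passed an adjusted p of 0.05 from limma. Uty (log2 difference 0.27, adjusted p = 0.0507) and Eif2s3y (0.21, adjusted p = 0.0655) came close and did not overlap between genotypes, while Kdm5d overlapped (0.017). Over the alternatives of processing, 0 to 3 of them were called. Of 19 measured clock genes, 12 were called lower and 5 higher in Dnajb4-/- livers, beside 9.57% and 5.09% of all genes. The time of day at which livers were taken was not given. Markers of skeletal muscle (8 of 8), of Kupffer cells and macrophages (7 of 8) and of endothelial cells (4 of 6) were called lower, none higher. Of the muscle markers, 2 lay under the array medians of 31.8 to 32.5 in every array. Of 7 stellate cell and fibroblast markers 1 was lower, and of 4 cholangiocyte markers 1 was higher. Of 5 lymphocyte markers, 4 of them under the array medians, none was called. Of 10 hepatocyte markers 2 were lower and 1 was higher, with none under the array medians. The ratio of 3' to 5' signal of Gapdh was 1.16 to 1.19 in Dnajb4+/+ and 1.43 to 1.48 in Dnajb4-/- livers. In whole liver, fewer cells of a type and less RNA per cell cannot be told apart. Where nothing but labels shows that arrays stem from separate mice, errors measure the spread between these arrays, which may be technical.

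The genotypes were compared with limma over all genes, and a gene was called when its Benjamini-Hochberg adjusted p, taken over the 18193 genes tested, was under 0.05. The 10 genes were selected on their role in fatty acid synthesis together with known genotype differences of these same arrays, above all that of Elovl3, so their differences are given as a description with standard errors (SE) and without p-values, and the calls serve only to sort them. Of the 10 genes, 2 were called higher (Elovl3 and Elovl2), 2 were called lower (Fads1 and Fads2) and 6 were not called. Of all genes tested, 14.7% were called, 5.09% higher and 9.57% lower. The share of higher genes among all calls was 34.7%, and it became 50.5% with each array centred on its brighter probe sets, a setting that left the calls of these 10 genes as they were. How common calls of the fit over all genes were among brighter genes was not counted. A separate fit of only the 9096 genes above the median signal, with p adjusted over those genes, called 3248. That fit called 5 of the 10 genes and did not include Elovl7 and Scd2. The values of 9 of the 10 genes did not overlap between genotypes, as was the case for 35.5% of all genes. The median log2 difference of the 10 genes was -0.051, beside 0.0075 for all genes, and the median of its absolute value was 0.13, beside 0.084.

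**Figure D1:**
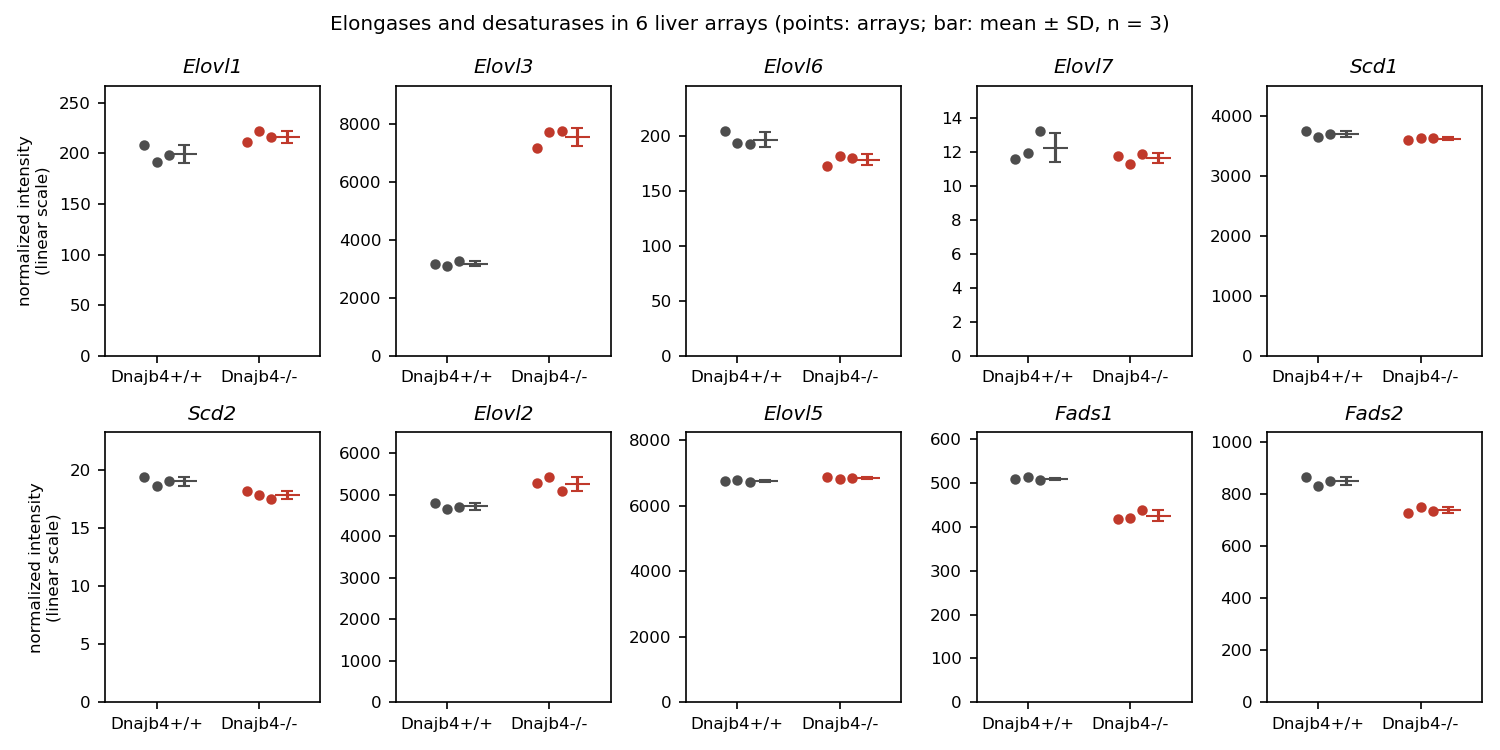
Normalized intensity (y axis, linear scale from 0) of the 10 genes in each of the 6 liver arrays, averaged over the probe sets of each gene on the log2 scale, with the mean and SD (n = 3) of each genotype beside the points. Elovl3 lies between 3101 and 3293 in Dnajb4+/+ and between 7192 and 7767 in Dnajb4-/- livers, while Elovl5 and Scd1 stay near one level.

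Among elongases of saturated and monounsaturated chains, Elovl3 had the largest difference, which was also the largest of the 10 genes. Its probe set 1420722_at read 3166, 3101 and 3293 in Dnajb4+/+ livers and 7192, 7726 and 7767 in Dnajb4-/- livers. Each Dnajb4-/- array was thus more than 2-fold above any Dnajb4+/+ array. The means were 3187 ± 97.8 and 7562 ± 321 (SD, n = 3), a log2 difference of 1.25 (SE 0.05) or 2.37-fold. Elovl3 ranked 8 among all genes by log2 difference, and 17 genes were higher by at least 2-fold. It was called under all 16 alternatives of processing, with differences between 1.23 and 1.28. Elovl3 has a single probe set, so no other probe set reads the same transcript here.

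Beside Elovl3, most of the listed genes with a known male bias had raised levels without Dnajb4. The sex-biased and clock lists were chosen with earlier results of these arrays known, so their counts and adjusted p are a description. Of 9 measured male-high genes other than Elovl3, 6 were called higher and none lower, beside 5.09% and 9.57% of all genes. Their log2 differences ran from 0.0084 for the complement component C6 to 0.99 for the glucuronosyltransferase Ugt2b38 (adjusted p = 1.67e-05 from limma). The steroid dehydrogenase Hsd3b5, also on this list, had a difference of 0.67 (adjusted p = 7.58e-05). The summed level of the list was 44762 to 45125 in Dnajb4+/+ and 54407 to 55148 in Dnajb4-/- livers. Gstp1 (19530 to 21656 over all arrays, not called) and Cyp2d9 (10080 to 12475) weigh most in this sum. Of 13 measured female-high genes, 12 were called lower and 1 was not called, beside 9.57% of all genes called lower. Their summed level was 7981 to 8392 in Dnajb4+/+ and 466 to 471 in Dnajb4-/- livers. Among those that fell were the sulfotransferase Sult3a1 (-7.02, adjusted p = 9.12e-09) and the cytochrome P450 gene Cyp2b9 (-5.55, adjusted p = 2.52e-07). Sult3a1 read 4495 to 4503 in Dnajb4+/+ livers and weighs most in the summed level there. In Dnajb4-/- livers Sult3a1 read 32.5 to 37.3 and Cyp2b9 19.2 to 24.3, near or under the array medians, so the sizes of these differences are uncertain, and with 16 added to each value they were -6.48 and -4.76. The clock genes with the largest differences were the transcription factor Dbp (-3.05, adjusted p = 1.59e-07) and the deubiquitinase Usp2 (-2.14, adjusted p = 1.59e-05). The parts of sex, time of day and genotype in the Elovl3 difference cannot be told apart in these 6 arrays. For adipocytes, which also express Elovl3 and Scd1, 2 of 6 measured markers were lower and none was higher, with a summed level of 220 to 236 in Dnajb4+/+ and 206 to 221 in Dnajb4-/- livers. The fatty acid carrier Fabp4 (85.0 to 93.7) and the hormone Retn (54.8 to 71.1) lay above the array medians in all 6 arrays, and Adipoq (12.8 to 21.1), Lep (9.92 to 11.2) and Cidea (9.44 to 14.5) lay under them. The lipid droplet gene Plin4 read 31.5 to 33.4 in Dnajb4+/+ and 24.98 to 25.43 in Dnajb4-/- livers, and Plin4 and Adipoq were the markers called lower. The part of adipocyte RNA in the Elovl3 difference was not tested.

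The 5 genes whose profile was most like that of Elovl3 were Arntl, BC023105, Ifi44l, Bcl6 and Nr0b2. Likeness was the root mean square distance over the 6 arrays between log2 values taken relative to each gene's Dnajb4+/+ mean, and it served as a description. The distance was 0.049 for Arntl, the clock activator BMAL1, and 0.075 for BC023105, known by a cDNA symbol. It was 0.11 for the interferon-induced gene Ifi44l, which read 10.6 to 12.9 and 25.2 to 30.5 and so lay under the array medians throughout. It was 0.11 for the transcriptional repressor Bcl6 and 0.12 for Nr0b2, the nuclear receptor SHP that represses bile acid synthesis. Arntl read 41.3, 41.8 and 40.2 in Dnajb4+/+ livers and 92.3, 102 and 96.8 in Dnajb4-/- livers. That its arrays were apart by genotype follows from its choice by likeness to Elovl3.

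**Figure D2:**
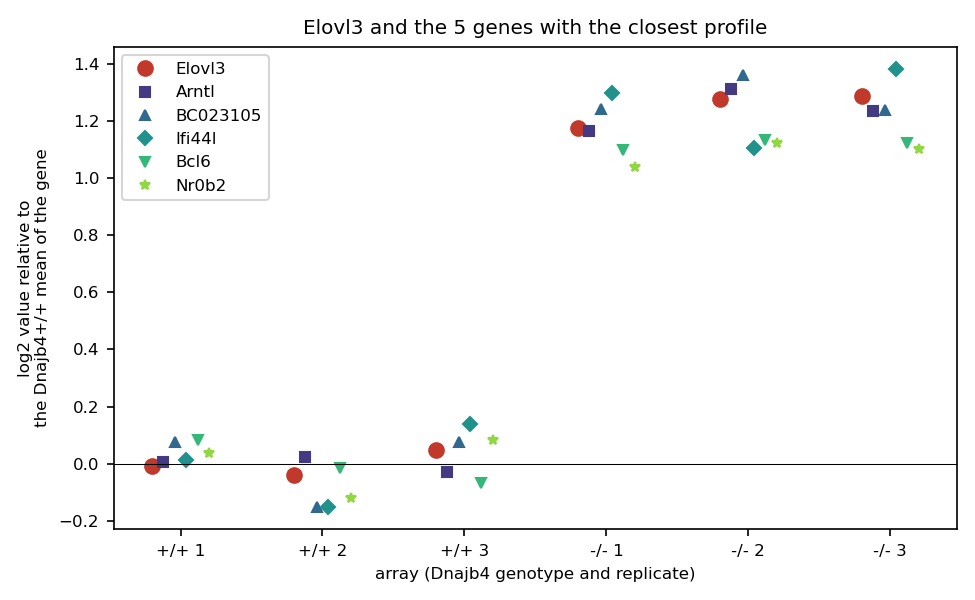
Log2 value relative to the Dnajb4+/+ mean of each gene (y axis) in each of the 6 arrays (x axis) for Elovl3 and the 5 genes with the closest profile, 1 point per gene and array. All 6 genes lie near 0 in the Dnajb4+/+ arrays and above 1 in the Dnajb4-/- arrays, and the 5 genes were chosen for this likeness to Elovl3.

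Elovl6, the elongase that turns palmitate into stearate, was lower in Dnajb4-/- livers without reaching a call. Its brightest probe set, 1417404_at, read 483, 511 and 494 in Dnajb4+/+ and 401, 442 and 421 in Dnajb4-/- livers, a log2 difference of -0.24 (SE 0.05) that was called among probe sets. The next, 1417403_at, read 379, 370 and 371 and then 343, 357 and 363, which do not overlap either (-0.076, SE 0.04). The dimmest, 1442656_at, read 46.7, 38.1 and 38.7 and then 37.4, 38.2 and 38.4, with overlap. Averaged over these probe sets, Elovl6 was 197 ± 6.83 and 178 ± 4.99 (SD, n = 3), a difference of -0.14 (SE 0.04, 95% interval -0.25 to -0.037). The gene was called under 5 of 16 alternatives, among them the brightest probe set alone (-0.24), probe sets averaged on the linear scale (-0.16) and 16 added to each value (-0.13).

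For Elovl1, an elongase of saturated and monounsaturated very long chains, the probe sets disagreed in direction. Probe set 1425676_a_at read 442, 399 and 430 in Dnajb4+/+ and 385, 414 and 382 in Dnajb4-/- livers (-0.11, SE 0.06), with overlap. Probe sets 1456530_x_at and 1455994_x_at were higher in every Dnajb4-/- array than in any Dnajb4+/+ array. The former read 484, 445 and 464 and then 522, 521 and 572 (0.21, SE 0.06), and the latter 449, 438 and 481 and then 494, 540 and 534 (0.20, SE 0.06). The dim probe set 1443820_x_at read 15.9 to 20.8 (0.17, SE 0.09). All 4 carry an _a_at or _x_at ending, by which the manufacturer marks probe sets that can read several transcripts, so which transcripts they read was not settled here. The gene-level difference of 0.12 (SE 0.05) is a mean over opposing values, and a call was reached only with the brightest probe set alone (0.21).

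Elovl7, which acts on saturated chains, has 6 probe sets, all of them dim. They read 8.09 to 26.5 over all arrays, under the array medians, and 5 of them overlapped between genotypes. The gene-level difference was -0.072 (SE 0.06, 95% interval -0.21 to 0.065), a level at which the arrays give little information on the transcript.

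Scd1, the main hepatic desaturase that places a double bond at the ninth carbon of stearate and palmitate, was close to equal between genotypes. Its brightest probe set, 1415964_at, read 14790, 14947 and 15202 in Dnajb4+/+ and 14337, 14552 and 14762 in Dnajb4-/- livers, a log2 difference of -0.042 (SE 0.04). Every Dnajb4-/- array was below every Dnajb4+/+ array, by a margin of less than 1 SD of either genotype (208 and 212). Probe set 1415965_at read 951, 894 and 898 and then 904, 905 and 897, with overlap (-0.019, SE 0.05). At the gene level the difference was -0.031 (95% interval -0.11 to 0.053), not called under any of 16 alternatives and 0.002 with arrays centred on their brighter probe sets. Scd2, the isoform best known from brain, was dim. Its probe sets read 45.3 to 50.5, 15.2 to 18.0 and 7.27 to 9.31, with overlap in all 3, while the gene-level averages, 18.6 to 19.3 and 17.5 to 18.2, did not overlap (-0.091, SE 0.04). The Scd genes are close paralogs that lie next to each other on chromosome 19 (GRCm38.p6), and whether their probe sets read each other's transcripts was not tested.

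The enzymes that make long polyunsaturated fatty acids moved in both directions. Both front-end desaturases were lower in Dnajb4-/- livers, Elovl5 between them in the pathway was level, and Elovl2 at its end was slightly higher. For the promoters of 4 of these and related genes, RefSeq sequence is shown so that the genes that were higher (Elovl2), lower (Fads2 and, without a call, Elovl6) and level (Elovl5) can be set side by side. Each runs 5′ to 3′ on the strand of its gene in GRCm38.p6, from 250 bases before to 50 bases after a transcription start, and capitals mark matches on either strand to any of 5 motifs.
Elovl2, chr13:41220354-41220653, strand -: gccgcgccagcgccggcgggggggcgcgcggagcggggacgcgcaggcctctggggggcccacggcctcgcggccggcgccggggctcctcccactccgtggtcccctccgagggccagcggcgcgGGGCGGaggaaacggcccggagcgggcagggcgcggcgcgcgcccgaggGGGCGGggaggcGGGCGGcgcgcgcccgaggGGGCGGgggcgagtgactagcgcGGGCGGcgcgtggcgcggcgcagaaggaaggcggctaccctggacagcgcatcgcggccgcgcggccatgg
Fads2, chr19:10101454-10101753, strand -: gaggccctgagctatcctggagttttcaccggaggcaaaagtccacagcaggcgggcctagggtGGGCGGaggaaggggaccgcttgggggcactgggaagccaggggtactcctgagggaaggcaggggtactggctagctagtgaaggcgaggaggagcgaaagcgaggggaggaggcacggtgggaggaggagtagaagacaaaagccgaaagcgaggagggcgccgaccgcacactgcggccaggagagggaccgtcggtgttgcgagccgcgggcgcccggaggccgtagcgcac
Elovl6, chr3:129532136-129532435, strand +: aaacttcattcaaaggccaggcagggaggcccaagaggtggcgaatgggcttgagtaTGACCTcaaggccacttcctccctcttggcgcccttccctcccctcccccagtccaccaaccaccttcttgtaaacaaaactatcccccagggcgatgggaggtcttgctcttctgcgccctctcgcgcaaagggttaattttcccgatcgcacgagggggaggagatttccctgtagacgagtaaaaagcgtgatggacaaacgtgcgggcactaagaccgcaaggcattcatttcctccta
Elovl5, chr9:77917115-77917414, strand +: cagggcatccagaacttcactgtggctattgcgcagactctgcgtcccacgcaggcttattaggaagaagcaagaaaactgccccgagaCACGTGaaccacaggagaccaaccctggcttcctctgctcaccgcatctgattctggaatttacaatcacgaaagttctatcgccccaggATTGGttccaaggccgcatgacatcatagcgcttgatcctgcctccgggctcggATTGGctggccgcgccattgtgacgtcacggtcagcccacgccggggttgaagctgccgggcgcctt
The motifs were the SREBP element TCACNCCAC, the NF-Y box CCAAT, the GC box GGGCGG bound by Sp1, the E-box CACGTG bound by clock factors and the nuclear receptor hexamer AGGTCA. Elovl2 holds 5 GC boxes, Fads2 holds 1, and neither holds another of the motifs. Elovl6 holds 1 nuclear receptor hexamer, and Elovl5 holds 2 NF-Y boxes and 1 E-box. None of these windows has the letters of the SREBP element, which 1.24% of all 32851 promoters of this length hold. Of these promoters, 35.7% hold a GC box, 37.4% an NF-Y box, 16.3% the hexamer and 7.15% the E-box. A further start of Elovl2 in the table has no match in its window. Promoter windows were matched for 6 of the 10 genes by symbol, and those of Elovl3, Fads1, Scd1 and Scd2 were not analysed here.

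Fads2, the desaturase that opens the pathway at the sixth carbon, was lower with each of its probe sets. Its brightest, 1419031_at, read 1706, 1709 and 1670 in Dnajb4+/+ and 1339, 1392 and 1394 in Dnajb4-/- livers, well apart (-0.30, SE 0.04). Probe set 1449325_at read 1080, 1061 and 1106 and then 913, 946 and 963, also apart (-0.20, SE 0.05), and both were called among probe sets. Probe set 1443838_x_at overlapped, with 318 to 349 and 296 to 321 (-0.10, SE 0.06). The gene-level means were 849 ± 15.7 and 738 ± 11.5 (SD, n = 3), a difference of -0.20 (SE 0.04). The call was lost without Dnajb4+/+ replicate 1, where the difference was -0.19.

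Fads1, which introduces the double bond at the fifth carbon to complete arachidonic acid, was lower as well. Its brighter probe set, 1423680_at, read 3456, 3496 and 3631 in Dnajb4+/+ and 3195, 3098 and 3227 in Dnajb4-/- livers (-0.15, SE 0.05). The genotypes did not overlap, though the probe set alone was not called. Probe set 1440444_at was far dimmer and read 74.9, 75.0 and 70.4 and then 54.4, 56.7 and 59.7 (-0.37, SE 0.05), and it was called. The gene-level difference was -0.26 (SE 0.04), a mean of probe sets that differ in size, and it was -0.15 with the brightest probe set alone and -0.16 with linear averaging. Fads1 was called under all 16 alternatives. Fads3, Fads2 and Fads1 follow each other on chromosome 19 (GRCm38.p6), and Fads3, a relative that acts on sphingoid bases, read 24.1 ± 1.28 and 25.1 ± 1.01 (SD, n = 3), under the array medians.

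Elovl5, which lengthens the products of Fads2, was level between genotypes. Its probe sets read 6970, 6935 and 6897 in Dnajb4+/+ against 6895, 6971 and 6997 in Dnajb4-/- livers, and 6567, 6642 and 6557 against 6826, 6634 and 6690. Each overlapped between genotypes, although their gene-level averages did not (6725 to 6787 and 6800 to 6860), and the gene-level difference was 0.016 with a 95% interval of -0.065 to 0.097. Elovl2, which lengthens chains on the way to DHA, read 4808, 4643 and 4710 in Dnajb4+/+ and 5281, 5412 and 5083 in Dnajb4-/- livers with its single probe set. All Dnajb4-/- arrays were higher, with means of 4720 ± 83.0 and 5259 ± 166 (SD, n = 3) and a difference of 0.16 (SE 0.04). This call was close to the threshold. It was lost without any of the 6 arrays in turn, where the difference ran from 0.13 to 0.18, and the same probe set was not called in the fit over all probe sets.

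**Figure D3:**
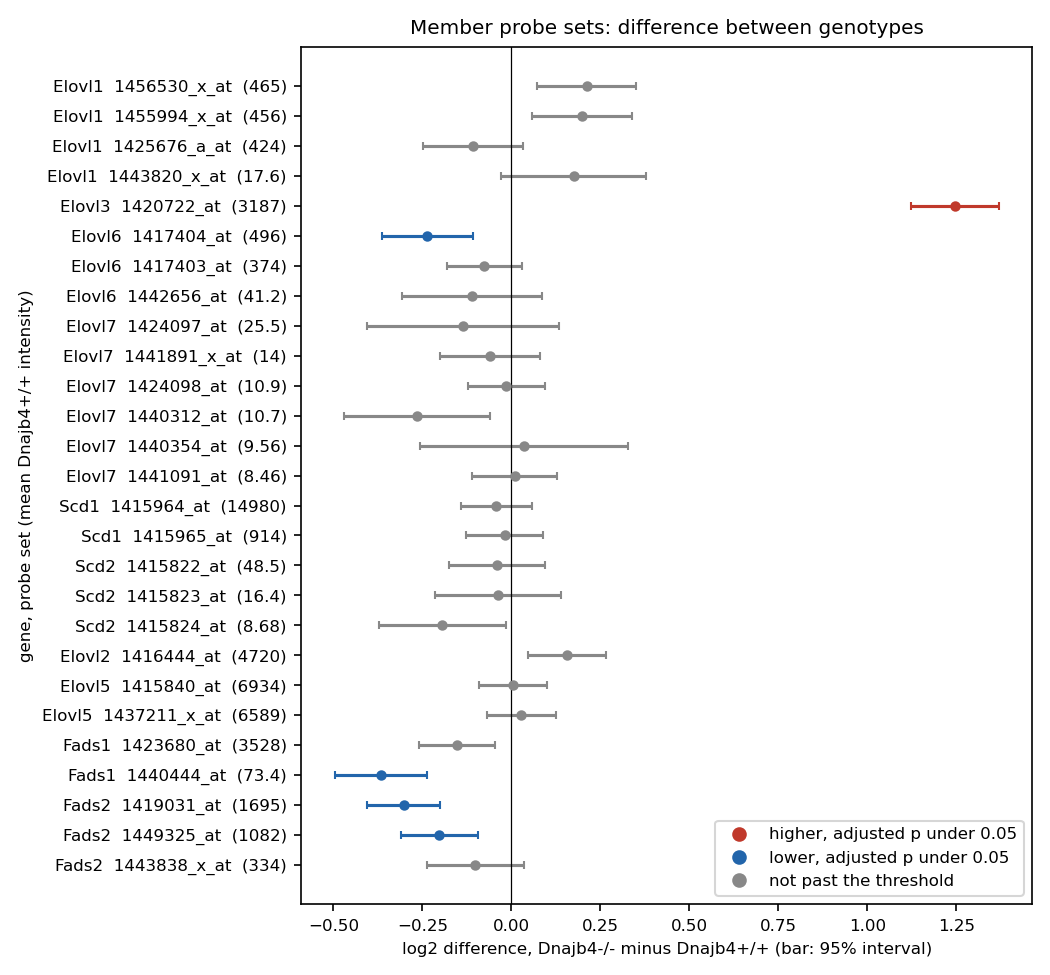
Log2 difference (x axis, Dnajb4-/- minus Dnajb4+/+) with its 95% interval for each of the 27 probe sets of the 10 genes, with the mean Dnajb4+/+ intensity in parentheses, red and blue marking an adjusted p under 0.05 over all probe sets. 1 probe set was called higher (Elovl3), 4 were called lower (1 of Elovl6, 1 of Fads1 and 2 of Fads2), and 22 were not called.

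Of the 27 probe sets, 12 did not overlap between genotypes, as was the case for 35.1% of all probe sets, and 5 were called, beside 13.5% of all probe sets. Of all probe sets, 5.2% were called higher and 8.34% lower. The values of 9 probe sets lay under the lowest array median in every array. Within a genotype the arrays were close, with an SD on the log2 scale of 0.0067 and 0.0065 for Elovl5 as the smallest gene-level values in Dnajb4+/+ and Dnajb4-/- livers. The largest was 0.10 for the dim Elovl7 in Dnajb4+/+ and 0.062 for Elovl3 in Dnajb4-/- livers.

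The genes that work with elongases and desaturases were described from lists, each read against 14.7% of all genes called. The share of these calls among brighter genes was not counted, so 14.7% may not be the right yardstick for lists of bright genes. The separate fit of the 9096 genes above the median signal, which called 3248, does not give that share. Of 4 other measured family members, Fads6, a desaturase-like gene of unsettled function, fell from 579.5 ± 3.33 to 506.6 ± 2.68 (SD, n = 3; -0.19, adjusted p = 0.0118 from limma), and Elovl4, Fads3 and Scd3 were not called. Scd4 was not analysed here. The median difference of these 4 was 0.030.

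Of 6 partner enzymes that complete the elongation cycle, 3 were called lower, 3 were not called and none was called higher, with a median of -0.17. Tecr, the reductase of the last step, fell from a mean of 2714 ± 15.8 to 2346 ± 45.1 (SD, n = 3; -0.21, SE 0.04, adjusted p = 0.0105 from limma). Each of its 2 probe sets is of the kind that can read several transcripts. The dehydratase Hacd3 fell as well, with a difference of -0.24 (adjusted p = 0.0105), which was -0.14 with its brightest probe set alone (adjusted p = 0.0490, in a range of 1.34e-04 to 0.0490 over its alternatives). Hacd4, a dehydratase of lower signal here, differed by -0.29 (adjusted p = 0.0482), a call lost under 10 of 16 alternatives, including 5 of the 6 left-out arrays, with adjusted p from 0.00896 to 0.146. Hsd17b12, the ketoreductase of the cycle, differed by 0.12 (adjusted p = 0.0630) and was named after its value was seen.

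Of 4 electron donors of desaturases, Cyb5r1, a cytochrome b5 reductase, fell from 102 ± 3.03 to 83.5 ± 4.28 (SD, n = 3; -0.29, adjusted p = 0.0114 from limma). Its single probe set is of the kind that can read several transcripts. The other 3, Cyb5a, Cyb5b and Cyb5r3, were not called, and the list's median was -0.081. The count was 3 among genes above the median signal or with 16 added to each value.

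Of 11 genes of acyl-CoA supply, 2 rose, 2 fell and 7 were not called, with a median of -0.028. Acsl4, an acyl-CoA synthetase with a preference for arachidonic acid, rose from 225 ± 0.852 to 279 ± 10.7 (SD, n = 3; 0.31, adjusted p = 0.00404 from limma). Its difference was 0.60 with the brightest probe set alone or once multi-transcript probe sets were removed, and 0.49 with linear averaging. Acly, which makes cytosolic acetyl-CoA from citrate, rose by 0.26 (adjusted p = 0.0135), and the difference was 0.11 once multi-transcript probe sets were removed (adjusted p = 0.203, in a range of 4.88e-04 to 0.203 over its alternatives). With its brightest probe set alone it was 0.51. Thrsp, a lipogenic thyroid hormone target, fell from 1244 ± 9.38 to 1006 ± 19.7 (SD, n = 3; -0.31, adjusted p = 0.00223), and so did Acsl3, which was named after its value was seen (-0.20, adjusted p = 0.0211). Fasn, the fatty acid synthase that makes palmitate, differed by -0.051 (adjusted p = 0.389) and was also named after its value was seen.

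Of 14 regulators, 2 rose, 3 fell and 9 were not called, with a median of -0.045. Srebf1, which encodes the SREBP-1 transcription factors that are known to activate Scd1, Elovl6, Fads1 and Fads2, fell from a mean of 1245 ± 39.5 to 930.5 ± 17.9 (SD, n = 3; -0.42, SE 0.04, adjusted p = 0.00105 from limma). Its single probe set is of the kind that can read several transcripts. Insig2, which holds SREBP in the endoplasmic reticulum, rose from 2813 ± 45.7 to 3944 ± 47.2 (SD, n = 3; 0.49, adjusted p = 3.22e-04), and its difference was 0.367 with its brightest probe set alone. Bcl6, a repressor of sex-biased liver genes, rose from 63.2 ± 3.38 to 137 ± 1.61 (SD, n = 3; 1.12, adjusted p = 2.62e-05), and its difference was 1.487 with its brightest probe set alone. The nuclear receptor Ppara (-0.23, adjusted p = 0.00723) and the coactivator Ppargc1b (-0.17, adjusted p = 0.0384) fell and were named after their values were seen, and the liver X receptor Nr1h3 differed by -0.12 (adjusted p = 0.114), named likewise.

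Of 5 peroxisomal genes that act in the last steps to DHA, Abcd2, a transporter of very long acyl-CoA, fell from 47.0 ± 0.942 to 17.4 ± 0.0795 (SD, n = 3; -1.43, adjusted p = 2.35e-06 from limma), and the other 4 were not called. Its Dnajb4-/- values lay under the array medians, so the size of this difference is uncertain. It was -1.02 with 16 added to each value, -1.743 with its brightest probe set alone and -1.895 without multi-transcript probe sets. The median of the list was -0.069. Of 9 genes for the transfer of acyl chains into glycerolipids and sterol esters, 1 rose, 3 fell and 5 were not called, with a median of -0.067. Dgat2, which makes triglyceride, fell from 2860 ± 34.9 to 2009 ± 21.4 (SD, n = 3; -0.51, adjusted p = 2.31e-04 from limma), and its difference was -0.325 with its brightest probe set alone. Agpat2, an acyltransferase of phosphatidic acid synthesis, rose by 0.35 (adjusted p = 0.00114). Agpat3, an acyltransferase that places DHA into phospholipids, fell too (-0.21, adjusted p = 0.0123), and its difference was -0.085 with its brightest probe set alone (adjusted p = 0.307, in a range of 0.00103 to 0.307). Lpcat3, which places arachidonic acid into phosphatidylcholine, fell (-0.17, adjusted p = 0.0270) and was named after its value was seen.

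**Figure D4:**
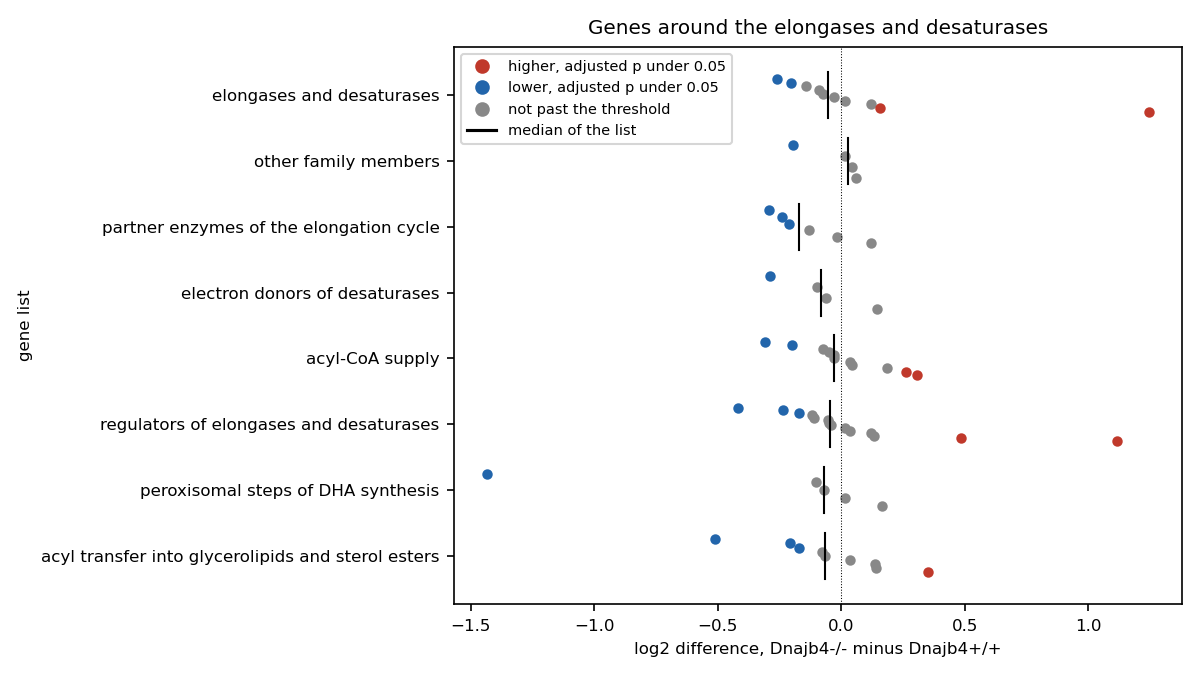
Log2 difference (x axis, Dnajb4-/- minus Dnajb4+/+) of each measured gene of the elongases and desaturases and of 7 lists of related genes (rows), 1 point per gene, with red and blue marking an adjusted p under 0.05 and a black bar at the median of each list. Elovl3 at 1.25 and Bcl6 at 1.12 lie farthest right, Abcd2 at -1.43 farthest left, and the list medians lie between -0.17 and 0.030.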

How the data were processed

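Liver RNA of 3 Dnajb4+/+ and 3 Dnajb4-/- mice was hybridised to Affymetrix mouse arrays, and genotypes and replicate numbers were taken from the titles. In GeneSpring the authors applied GCRMA, a background correction based on probe base composition, and global median centring, and they deposited 1 intensity per probe set on a linear scale, without detection calls in the table used here. Of 45101 probe sets, 64 controls were left out, 34945 with a single gene symbol were used, and log2 values were averaged per gene, which gave 18193 genes. Genotypes were compared with limma 3.58.1 in R 4.3.3 (lmFit and eBayes, two-sided) without a filter, on all genes and again on all probe sets. The procedure was tested on simulated arrays with planted differences and independent noise per gene. These lack the features that moved with genotype here, so they do not test the calls. The number of arrays limits the precision.

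The members and lists were chosen with earlier results of these data known. Named are the members, up to 3 called genes of each related list (otherwise the 2 of largest difference), 2 of each sex-biased or clock list, Xist, Y-linked genes, Dnajb4 and the 5 genes nearest to Elovl3. Listed genes that no single-symbol probe set represented were not analysed here. Promoters and the order of genes are from RefSeq tables of GRCm38.p6. Alternatives covered normalization, centring, a filter, an offset, the gene-level value, variance modelling, the t-test named in the study's methods, leaving out each array and a replicate block. Python 3.11.15 with matplotlib 3.10.9 drew the figures.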

Additional observations from a re-analysis of the deposited data

How the results depend on the processing

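The number of arrays and the dim signal of Elovl7 and Scd2 limit what can be seen. Calls were 2667 genes, 4733 probe sets and 4 of the 10 elongases and desaturases. With an array left out they ran from 1552 to 2009 genes, 2397 to 3220 probe sets and 2 to 3 elongases and desaturases, from 2 to 4 genes of acyl-CoA supply (main 4) and from 0 to 1 Y-linked genes (main 0). Genes called moved by over 1.5 times without Dnajb4+/+ replicate 1 (1552) or 3 (1621) and without Dnajb4-/- replicate 1 (1692) or 2 (1721), and without Dnajb4+/+ replicate 1 Elovl3 and Fads1 were the elongases and desaturases called. Probe sets called were 2767 without those that can read several transcripts and 7332 with trend and robust variance.

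The labels name no pairing of same-numbered arrays, and these correlated in their deviations at -0.021, -0.141 and 0.009. Whether they share a batch was not settled. With the replicate block, calls were 1529 genes, 2166 probe sets, 2 elongases and desaturases (Elovl3 and Fads1), 1 partner enzyme of the elongation cycle, 2 genes of acyl-CoA supply, 2 of acyl transfer, 1 Y-linked gene and 0 other family members.

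Electron donors (main 1) came to 2 with quantile normalization, brighter-probe centring, the brightest probe set, linear averaging or the methods' t-test, 3 above the median signal, with 16 added or with trend and robust variance, and 0 without multi-transcript probe sets. In that last setting Cyb5r1 had no probe set left and was not tested. Peroxisomal genes (main 1) came to 2 with quantile normalization, brighter-probe centring, the filter, linear averaging or the t-test, and 3 with 16 added or trend and robust variance. Partner enzymes (main 3) came to 5 with the filter, 16 added, the brightest probe set, linear averaging or trend and robust variance, and 1 without multi-transcript probe sets, where Tecr was not tested. Regulators (main 5) came to 8 with the filter, 9 with 16 added and 3 without multi-transcript probe sets, acyl-CoA supply to 2 without these, and acyl transfer to 7 with linear averaging. Srebf1 was not tested without multi-transcript probe sets. Y-linked genes came to 2 with brighter-probe centring, 16 added, the brightest probe set or trend and robust variance, 1 with the filter and 3 with linear averaging.

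The direction of Scd1 reversed with brighter-probe centring (0.002). Of 489 differences of named genes under alternatives, 454 kept direction and call, 28 lost the call, 6 gained it and 1 changed sign. The cause of these changes was not tested.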
